A study of Mus musculus with 2 samples.

Results

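Csf1, Il34 and Csf1r were followed across the cell classes of control and tetYAP livers, to ask which cells held the transcripts of the ligands and of their receptor before and after 4 weeks of YAP induction. These are 3 of the 31053 genes of the count table, taken by their symbols. CSF1 (macrophage colony-stimulating factor) and IL34 are secreted cytokines that bind the same receptor, CSF1R, a receptor tyrosine kinase carried by monocytes and macrophages. Signalling through it sustains the survival, proliferation and differentiation of these cells, and Kupffer cells, the resident macrophages of the liver, depend on it. In several tissues IL34 and CSF1 are made by different cells and serve different macrophage populations.

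The data are droplet-based single-cell RNA-seq of livers dissociated by perfusion, with transcripts counted as unique molecular identifiers (UMIs, 1 per captured molecule). Both animals were C57BL/6 and carried LAP-tTA, the tetracycline transactivator driven by the liver-restricted LAP promoter. The control (LaptTA;WT) had no inducible transgene. The tetYAP 4W animal (LaptTA; tetYAP) also carried an inducible YAP S127A, which lacks an inhibitory phosphorylation site, and was analysed 4 weeks after induction, which in this line begins when young mice leave a doxycycline diet for a regular one. The age of the control is not given in the sources used here. Each group has 1 library, so that no test between groups was possible. Intervals are 95% intervals of counting error only (exact Poisson for levels, Clopper-Pearson for shares, exact conditional binomial for ratios). Where a count is 0, the limit given is that of 3 counts of the total, and it concerns barcodes with a UMI, not cells that express the gene.

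The control library held 2989 barcodes and 9509885 UMIs (median 3117 per barcode), the tetYAP 4W library 1524 barcodes and 6777210 UMIs (median 4150), and no barcode sequence was shared. Yap1, the targeted gene, had 155 control and 128 tetYAP 4W UMIs; whether reads of the transgene can be assigned to it is not given in the sources used here. Xist had 3 control and 4859 tetYAP 4W UMIs, and Y-linked genes had 716 and 0, so that sex and genotype cannot be told apart. Per the methods, perfused livers were processed with v3 reagents. The median mitochondrial share of UMIs was 28.1% and 37.7%.

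Both libraries are labelled hepatocytes, yet both held other cells. Barcodes were assigned to a class, called "like" that class, by UMIs of marker genes that did not include the 3 genes, and those that came near the limit of no other class were called hepatocyte-like. Hepatocyte-like barcodes numbered 2839 (control) and 716 (tetYAP 4W), endothelial-like 59 and 144, macrophage-like 23 and 235, and T or NK cell-like 11 and 118. B cell-like barcodes numbered 1 and 46, erythroid-like 5 and 40, stellate-like 7 and 27, dendritic cell-like 2 and 8, and platelet-like 0 and 1. By the marker limits, monocyte-like and neutrophil-like barcodes were found in the tetYAP 4W library alone, with 29 and 11. A further 42 and 149 barcodes lay between the hepatocyte-like and another class and were kept as intermediate. With classes taken from clusters made without the 3 genes, 19 control and 64 tetYAP 4W barcodes were monocyte-like, and 42 and 278 macrophage-like. All these numbers are of deposited barcodes and need not be those of the livers. The authors had removed the deepest barcodes, and by the order of the methods more of them from the tetYAP 4W library. Hepatocyte marker UMIs were present at similar levels in every class (class medians of 258 to 407 per barcode), so that these markers did not set hepatocyte-like barcodes apart from the rest.

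In the RefSeq annotation of GRCm38.p6, the build that mm10 names, Csf1 lies on chromosome 3 (107741048 to 107760469, minus strand) and Il34 on chromosome 8 (110741829 to 110805949). Both are protein-coding. The 250 bases before the start of Csf1 are shown because Csf1 is the ligand whose transcript differed between the libraries. They span chr3:107760470-107760719 and are given 5′ to 3′ on the minus strand, from RefSeq, with a match to an NF-kB motif in capitals.
Csf1 promoter: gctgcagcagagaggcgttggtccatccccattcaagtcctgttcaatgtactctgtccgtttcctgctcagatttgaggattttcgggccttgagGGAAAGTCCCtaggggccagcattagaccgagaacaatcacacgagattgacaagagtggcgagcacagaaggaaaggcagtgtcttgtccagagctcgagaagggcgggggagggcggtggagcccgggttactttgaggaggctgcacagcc
Both strands were searched for GGAATG, letters bound by TEAD, the DNA-binding partner of YAP, and for the NF-kB letters, which the capitals above give as their reverse complement. The motifs were chosen after the sequence had been read. The NF-kB letters matched once, on the opposite strand, 154 to 145 bases before the start. Among 32851 promoter windows of the same length, 46 (0.14%) held them. Because the letters were chosen with this sequence known, that share does not measure how unusual the match is. The TEAD letters were in 12.6% of windows and not in this one. A match describes letters and not a bound site.

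Csf1 transcripts were rare in the control and came to a large extent from few endothelial-like barcodes, while in the tetYAP 4W library they were spread over hepatocyte-like and endothelial-like barcodes. Over all barcodes 30 Csf1 UMIs were counted in the control (20.2 to 42.8) and 433 upon induction (393 to 476), and the log2 ratio of CPM (UMIs scaled to an equal library total) was 4.34 (3.81 to 4.93). Of the 12621 genes with at least 10 UMIs, 2.79% had a ratio at least as high, and the median of all genes was 0.60.

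In the control, 14 of the 30 Csf1 UMIs lay in the 59 endothelial-like barcodes and 14 in the 2839 hepatocyte-like ones. This gives 0.237 UMIs per endothelial-like barcode (0.13 to 0.398) and 0.00493 per hepatocyte-like barcode (0.0027 to 0.00827). Endothelial-like barcodes thus exceeded hepatocyte-like ones by a log2 ratio of 5.0 per UMI (3.82 to 6.17). The other 2 UMIs were in intermediate barcodes. None was found in the 23 macrophage-like barcodes, which allows a share of up to 13% of barcodes with a UMI.

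Upon YAP induction, hepatocyte-like barcodes held 235 of the 433 Csf1 UMIs (54.3%, 49.4 to 59.0) and made up 47.0% of barcodes. Their level was 0.328 UMIs per barcode (0.288 to 0.373). The log2 ratio over control hepatocyte-like barcodes was 5.62 per UMI (4.85 to 6.51), and 6.06 per barcode. No background was taken off these ratios. Erythroid-like, B cell-like and T or NK cell-like barcodes of this library together held 0.176 per barcode, also far above control hepatocyte-like barcodes. Endothelial-like barcodes held 65 UMIs, or 0.451 per barcode (0.348 to 0.575). Here the ratio to the control was 0.66 per UMI (-0.19 to 1.61), an interval that includes 0, and 0.33 per endothelial marker UMI (-0.52 to 1.28), whereas per barcode it was 0.93 (0.08 to 1.88). Endothelial-like barcodes were also deeper in the tetYAP 4W library, with a median of 5879 against 4646 UMIs.

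**Figure D1:**
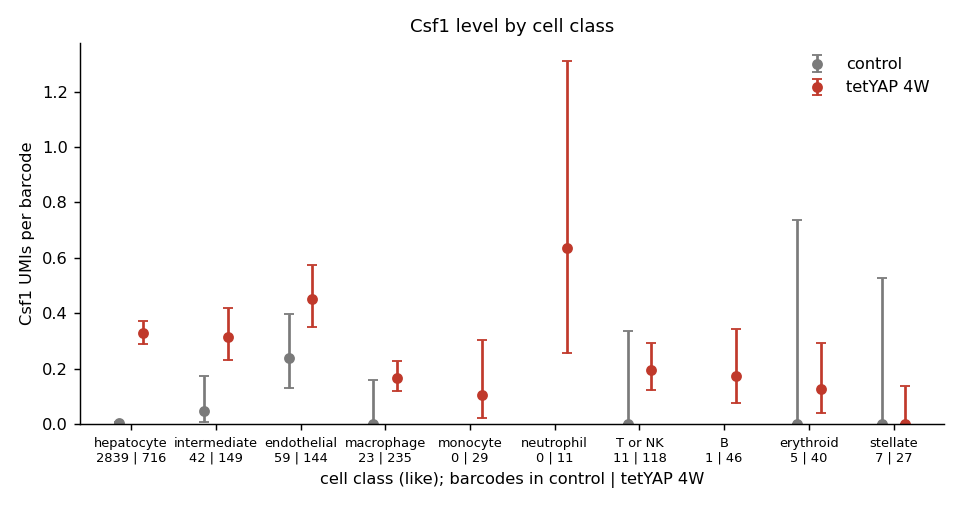
Csf1 UMIs per barcode (vertical axis) in each cell class (horizontal axis, with the number of barcodes in the control and the tetYAP 4W library under each name). Points are sums over barcodes divided by their number, bars are exact Poisson 95% intervals, and classes with fewer than 5 barcodes in a library are left out. In the control only endothelial-like barcodes stand clear of 0.1, at 0.237, while in the tetYAP 4W library every class shown has Csf1 except the stellate-like one.

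Csf1 was also found in tetYAP 4W barcodes of cells in which it is not characteristic. Erythroid-like, B cell-like and T or NK cell-like barcodes together held 36 UMIs in 204 barcodes, or 0.176 per barcode (0.124 to 0.244), and this level is called background here. T and NK cells can make CSF1 when activated. With erythroid-like and B cell-like barcodes alone the level was 0.151 (13 UMIs in 86 barcodes), from which that of T or NK cell-like barcodes (0.195) lay within counting error (log2 ratio 0.37, -0.67 to 1.47). A Csf1 UMI was present in 24.0% of hepatocyte-like (20.9 to 27.3), 30.6% of endothelial-like (23.2 to 38.8) and 17.2% of background barcodes (12.3 to 23.0), at median depths of 3982 and 5879 UMIs in the first and second, and of 3414 to 4831 in the 3 background classes. After thinning each barcode to 1000 UMIs, with none left out, these shares were 5.59%, 6.25% and 2.94%, and their intervals overlapped.

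Hepatocyte-like barcodes exceeded this background by a log2 ratio of 0.90 per barcode (0.38 to 1.44). Per UMI other than mitochondrial the excess was 1.68 (1.17 to 2.23), and per hepatocyte marker UMI it was 0.60 (0.09 to 1.15). Against erythroid-like and B cell-like barcodes alone, the last of these was 0.77 with an interval that includes 0 (-0.03 to 1.70). All these intervals assume that the variance over barcodes equals the mean. In hepatocyte-like barcodes it was 1.91 times the mean, so that they are too narrow, and a lower limit as near 0 as 0.09 is not secure. Endothelial-like barcodes exceeded the background by 1.02 per UMI (0.41 to 1.65). The order of both classes depended on the scale. Endothelial over hepatocyte-like was 0.46 per barcode (0.04 to 0.86), 0.04 per UMI (-0.38 to 0.44) and -0.70 per UMI other than mitochondrial (-1.12 to -0.30). The median mitochondrial share was 57.5% in hepatocyte-like and 22.6% in endothelial-like barcodes of this library.

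Macrophage-like barcodes held 39 Csf1 UMIs (0.166 per barcode), a level within counting error of the background (log2 ratio -0.14 per UMI, -0.83 to 0.55). The 11 neutrophil-like barcodes held 7 UMIs in 4 barcodes, or 0.636 per barcode (0.256 to 1.31). Counted by UMIs, this was above the background by 1.85 per barcode (0.44 to 3.04), but 1 barcode held 3 of the 7. Counted by barcodes with a UMI, the share was 36.4% (10.9 to 69.2), an interval that overlaps that of the background. No Csf1 UMI was found in the 27 stellate-like barcodes, which allows a share of up to 11.1%. Against the background, the upper limit of their log2 ratio was -0.29 per barcode and 0.15 per UMI other than mitochondrial. They thus lay below the background on the first scale and not beyond counting error on the second. With class limits divided by 2, 40 stellate-like barcodes of this library held 5 Csf1 UMIs, and with limits multiplied by 2, 15 held 0. Monocyte-like barcodes held 3 UMIs in 29 barcodes. Intermediate barcodes had 0.315 per barcode (0.232 to 0.419), close to hepatocyte-like ones.

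**Figure D2:**
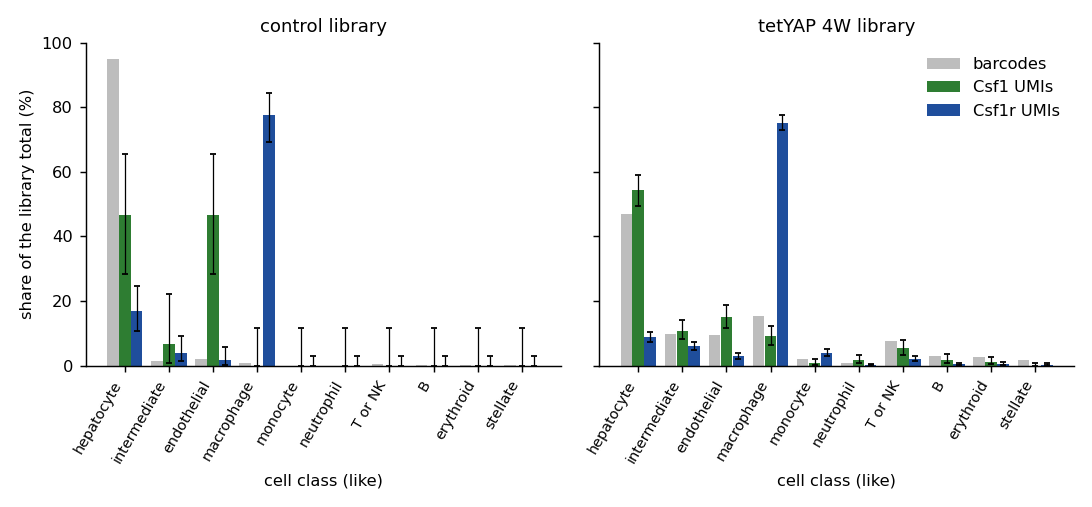
Share of the barcodes (grey), of the Csf1 UMIs (green) and of the Csf1r UMIs (blue) of a library that fell in each cell class, for the control (left) and the tetYAP 4W library (right). Lines are Clopper-Pearson 95% intervals. Csf1r UMIs fell mostly in macrophage-like barcodes in both libraries (77.6% and 75.2%), while 46.7% of control Csf1 UMIs and 65 of the 433 tetYAP 4W ones fell in endothelial-like barcodes.

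Within hepatocyte-like barcodes Csf1 was unevenly held. In the tetYAP 4W library 544 of 716 barcodes had no Csf1 UMI, 136 had 1, 26 had 2 and 10 had at least 3. Those 10 barcodes held 47 of the 235 UMIs, with a maximum of 11, and the variance over barcodes was 1.91 times the mean. In the control, 2826 of 2839 barcodes had none, 12 had 1 and 1 had 2.

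Csf1 was higher in tetYAP 4W hepatocyte-like barcodes with more UMIs of a list of 22 YAP target genes. It was 0.204 per barcode in the 309 barcodes without a target UMI (0.157 to 0.261), 0.322 in the 245 with 1 (0.255 to 0.402) and 0.574 in the 162 with 2 or more (0.463 to 0.703). Scaled by UMIs, the levels were 49.8, 76.5 and 128 CPM. Median depths were 3933, 4005 and 4104 UMIs and median mitochondrial shares 58.5%, 57.7% and 54.3%. After thinning to 1000 UMIs the level was 0.0433 without and 0.118 with 1 target UMI, and only 18 barcodes, with 1 Csf1 UMI, had 2 or more. Control barcodes without a target UMI had 12 Csf1 UMIs in 2401 barcodes, those with 1 had 0 in 390, and those with 2 or more had 2 in 48.

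By mitochondrial share, the 24 tetYAP 4W hepatocyte-like barcodes under 20% held 0.958 Csf1 UMIs per barcode (0.608 to 1.44), but the 23 UMIs behind this lay in 5 barcodes, 11 of them in 1 barcode. These 24 barcodes also had more UMIs of the nuclear transcript Malat1 (76.2 per barcode) and of YAP targets (3.33) than any other bin. In the bins from 20% upwards Csf1 ranged from 0.23 to 0.368 per barcode, and all intervals overlapped. Control bins up to 50% mitochondrial share had at most 0.0065 per barcode. The part of depth and RNA quality in these values was not tested.

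**Figure D3:**
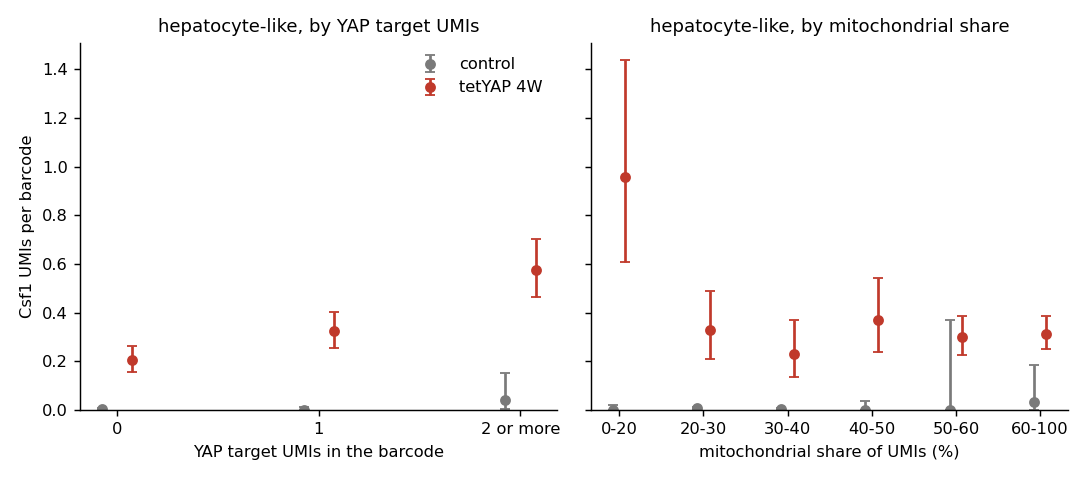
Csf1 UMIs per hepatocyte-like barcode (vertical axes) against the number of YAP target UMIs in the barcode (left) and the mitochondrial share of its UMIs (right), in the control (grey) and the tetYAP 4W library (red). Bars are exact Poisson 95% intervals. In the tetYAP 4W library the level was 0.204, 0.322 and 0.574 with 0, 1 and 2 or more target UMIs, and from 20% mitochondrial share upwards it lay between 0.23 and 0.368.

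Il34 was too rare to compare. The control held 2 UMIs, both in hepatocyte-like barcodes, and the tetYAP 4W library 3, of which 1 was in an endothelial-like, 1 in a stellate-like and 1 in a T or NK cell-like barcode. With both sums at or under 3 UMIs no ratio is given, and a difference was not detectable at this depth. None of the 716 tetYAP 4W hepatocyte-like barcodes held an Il34 UMI, which allows a share of up to 0.419% of barcodes with a UMI. For the 235 macrophage-like barcodes, also at 0, the limit is 1.28%.

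Csf1r, a protein-coding gene on chromosome 18 (61105572 to 61131139), was held by macrophage-like barcodes in both libraries, while their number differed. With classes set by marker limits, its levels in them were alike per barcode and per UMI. Per macrophage marker UMI they were lower in the tetYAP 4W library. Over all barcodes 125 control (104 to 149) and 1367 tetYAP 4W UMIs (1295 to 1441) were counted, a log2 ratio of CPM of 3.94 (3.68 to 4.22), and 4.50% of genes had a ratio at least as high. Macrophage-like barcodes held 97 of the control UMIs (77.6%, 69.3 to 84.6) and 1028 of the tetYAP 4W ones (75.2%, 72.8 to 77.5). They made up 0.77% of control and 15.4% of tetYAP 4W barcodes.

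A macrophage-like barcode held 4.22 Csf1r UMIs without (3.42 to 5.15) and 4.37 with induction (4.11 to 4.65). The medians were 5 and 4 UMIs and the highest barcodes had 9 and 16. A Csf1r UMI was present in 22 of 23 and 222 of 235 of these barcodes. Per UMI the log2 ratio of tetYAP 4W over control was -0.01 (-0.31 to 0.31). With classes taken from clusters made without the 3 genes, it was 0.34 (0.05 to 0.64). The macrophage-like barcodes of the tetYAP 4W library held more macrophage marker UMIs, 105 against 62.7 per barcode, and Csf1r per macrophage marker UMI was lower by a log2 ratio of -0.69 (-0.99 to -0.38).

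**Figure D4:**
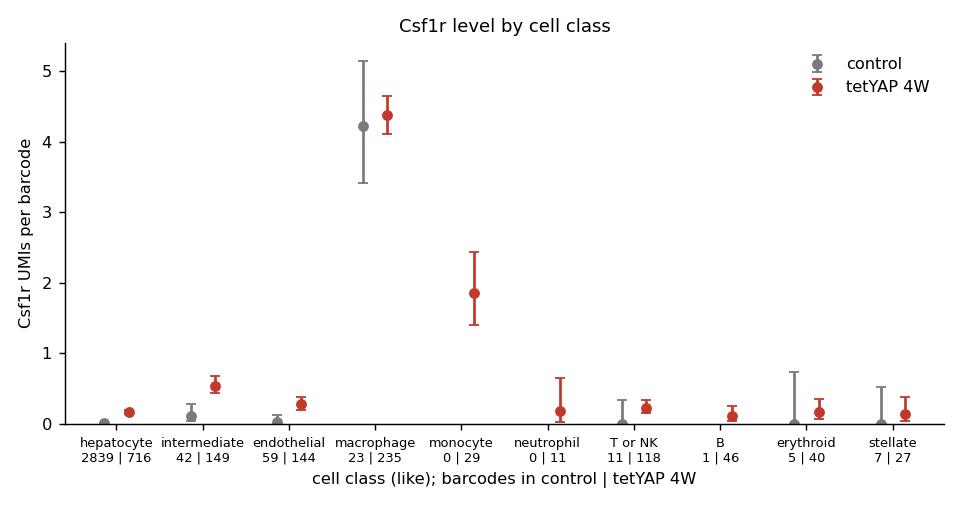
Csf1r UMIs per barcode (vertical axis) in each cell class (horizontal axis, with the number of barcodes in the control and the tetYAP 4W library). Points are sums over barcodes divided by their number and bars are exact Poisson 95% intervals, and classes with fewer than 5 barcodes in a library are left out. Macrophage-like barcodes stand at 4.22 and 4.37 in both libraries, monocyte-like ones at 1.86, and the intermediate and all other classes below 0.6.

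Among macrophage-like barcodes of the tetYAP 4W library, the 210 with at least 10 UMIs of Kupffer cell markers had 4.65 Csf1r UMIs per barcode (4.36 to 4.95), and the 25 with fewer had 2.08 (1.55 to 2.73). In the control 22 of 23 passed this limit, with 4.41 per barcode (3.58 to 5.38). Csf1r went with the amount of macrophage marker UMIs in both libraries. It was 2.82, 5.0 and 7.0 per barcode at 25 to 49, 50 to 99 and at least 100 marker UMIs in the control. In the tetYAP 4W library it was 1.88, 3.89 and 6.31, lower in each bin but with intervals that overlapped those of the control.

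The 29 monocyte-like barcodes of the tetYAP 4W library held 54 Csf1r UMIs, or 1.86 per barcode (1.40 to 2.43). This was below macrophage-like barcodes by a log2 ratio of -1.23 per barcode (-1.66 to -0.84). Of these barcodes 24 also passed the marker limit of another class. Per macrophage marker UMI the difference between both classes was within counting error (-0.16, -0.58 to 0.24).

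Outside these classes Csf1r largely followed the macrophage markers. In the tetYAP 4W library hepatocyte-like barcodes had 0.166 Csf1r UMIs per barcode (0.138 to 0.199), close to the 0.191 of background barcodes (0.136 to 0.261), and 0.0074 in the control. Per UMI other than mitochondrial, hepatocyte-like barcodes exceeded the background by a log2 ratio of 0.59 (0.05 to 1.15). Per 100 macrophage marker UMIs, Csf1r was 4.21 in hepatocyte-like (3.49 to 5.04), 4.45 in endothelial-like (3.18 to 6.06), 4.16 in macrophage-like (3.91 to 4.43) and 3.09 in background barcodes (2.20 to 4.22). The 149 intermediate barcodes had 5.51 on this scale (4.38 to 6.85), above the background by a log2 ratio of 0.84 (0.27 to 1.43). Control hepatocyte-like barcodes had 6.44 (3.99 to 9.85) and macrophage-like ones 6.73 (5.46 to 8.21). Within each library the ratio of Csf1r to macrophage markers in hepatocyte-like barcodes was thus that of macrophage-like ones within counting error.

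**Figure D5:**
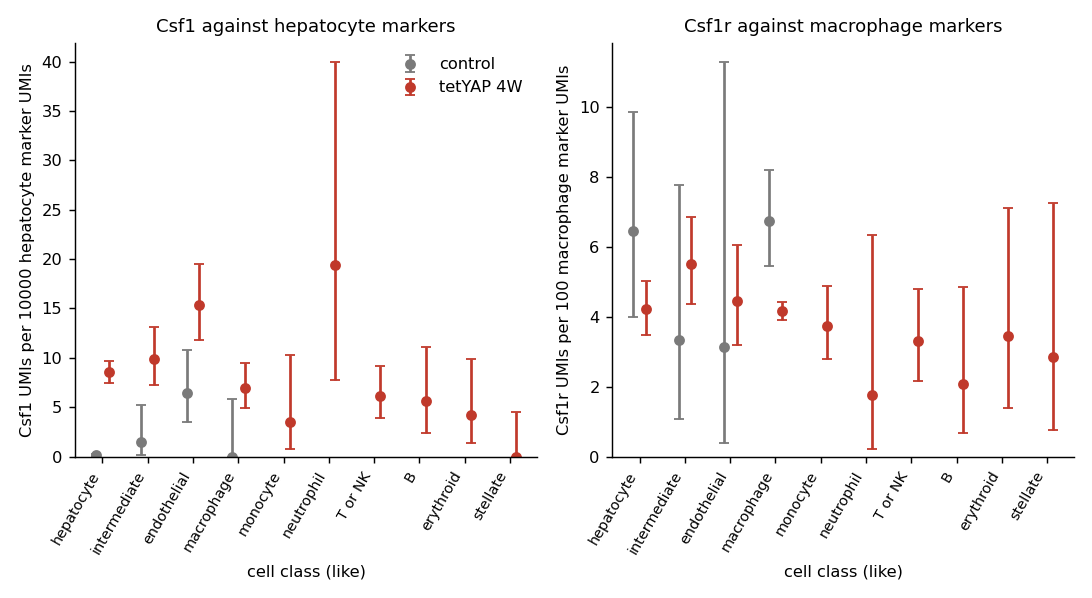
Left, Csf1 UMIs per 10000 hepatocyte marker UMIs; right, Csf1r UMIs per 100 macrophage marker UMIs, in the cell classes of the control (grey) and the tetYAP 4W library (red), with exact Poisson 95% intervals for the gene. Control classes under 20 barcodes and tetYAP 4W classes under 10 are left out. On the right the tetYAP 4W classes shown lie between 1.75 and 5.51 with overlapping intervals for most, while on the left endothelial-like barcodes (15.3) stand above hepatocyte-like ones (8.55) and stellate-like barcodes are at 0.

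The class shares and the levels within classes entered both ratios differently. With tetYAP 4W levels and the class shares of the control, the level of Csf1 over all barcodes would be 24.4-fold that of the control, against 2.57-fold with control levels and tetYAP 4W shares. For Csf1r these values were 3.88-fold and 12.3-fold. Classes that the control lacks by the marker limits held 3.21% of tetYAP 4W UMIs. Background UMIs enter the levels of every class, so that this is arithmetic and not a division between causes.

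Both transcripts were found together in a minority of barcodes. In the tetYAP 4W library 34 of the 222 macrophage-like barcodes with Csf1r also had Csf1 (15.3%, 10.9 to 20.7), beside 15.7% of all macrophage-like barcodes. Over all classes 91 of 469 barcodes with Csf1r had Csf1 (19.4%), where 22.2% of all barcodes had Csf1. In the control 1 of 47 had both. The part of free RNA and of doublets, which were not removed here, was not tested.

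Of the genes around the receptor, most with at least 10 UMIs were higher over all barcodes of the tetYAP 4W library, where 38.3% of all genes were higher by 2-fold or more and 7.89% lower (31.9% and 8.01% of genes with at least 50 UMIs). In sums over all barcodes, more cells of a type and more RNA per cell cannot be told apart. Of 24 genes of CSF1R signalling, 19 were higher by 2-fold and 0 lower, with a median log2 ratio of 2.96. In the tetYAP 4W library 11 of the 24 were highest in monocyte-like, 6 in macrophage-like and 0 in hepatocyte-like barcodes, beside 17.1%, 11.0% and 4.10% of all genes. Tyrobp, the adaptor DAP12, had 192 and 3146 UMIs (log2 ratio 4.52, 4.31 to 4.74) and reached 2332 CPM in monocyte-like and 1563 in macrophage-like barcodes. Lyn, a Src-family kinase, had 92 and 558 UMIs (3.09, 2.77 to 3.42). Pik3r1, the regulatory subunit of PI3-kinase, had a log2 ratio of 0.64 (0.43 to 0.86).

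Among 8 transcription factors that regulate Csf1r, 6 were higher by 2-fold and 1 lower, with a median of 2.63. Within macrophage-like barcodes Cebpb was higher by a log2 ratio of 0.49 (0.04 to 0.97). In the same barcodes Tyrobp was higher (0.91, 0.60 to 1.25), while Lyn was at 0.62 with an interval that includes 0 (-0.04 to 1.38). Cebpa, which hepatocytes express as well, was lower over all barcodes (1350 and 418 UMIs, -1.20, -1.36 to -1.04). Over all barcodes Cebpb was at 0.44 (0.33 to 0.55) and Ets2 at 2.21 (1.90 to 2.54), with the highest level of Ets2 in endothelial-like barcodes (254 CPM).

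Other proteins that bind IL34 were few. Sdc1, the proteoglycan syndecan-1, had 577 and 574 UMIs (log2 ratio 0.48, 0.31 to 0.65) and was found in all the larger classes. Trem2, a receptor of macrophages, had 2 and 60 UMIs (5.40, 3.48 to 8.47), with its highest level in macrophage-like barcodes (41.2 CPM). Ptprz1 had 0 UMIs in both. All 4 genes of the shedding of CSF1 and CSF1R from the cell surface were higher by 2-fold, with a median of 2.34. Adam17, the protease, had 102 and 218 UMIs (1.58, 1.24 to 1.94), and its cofactors Rhbdf2 and Rhbdf1 had ratios of 2.11 and 3.79. Timp3, its inhibitor, had 86 and 363 UMIs (2.57, 2.22 to 2.92) and reached 330.0 CPM in endothelial-like barcodes.

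Of 18 other colony-stimulating factors, type III receptor kinases and their partners, 14 had at least 10 UMIs, of which 13 were higher by 2-fold and 0 lower (median 2.96). This list shares Csf3r and Flt3 with the class markers. The ligands Csf2, Csf3 and Il3 and the receptor Flt3 had fewer than 10 UMIs. Csf2rb and Csf2ra, the chains of the GM-CSF receptor, had 23 and 162 and 7 and 155 UMIs, with levels of 101 and 87.1 CPM in macrophage-like barcodes. Kit, the stem cell factor receptor (28 and 113 UMIs), and Il3ra (11 and 78) were highest in endothelial-like barcodes.

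Of the 22 YAP targets, 19 had at least 10 UMIs, of which 17 were higher by 2-fold and 1 (F3) lower, with a median of 2.28. In the tetYAP 4W library 2 of the 19 were highest in hepatocyte-like barcodes, beside 4.10% of all genes. Scaled by UMIs other than mitochondrial, a choice made after seeing the data, it was 4 of the 19 beside 10.9%. Axl, a receptor kinase that macrophages express, had 70 and 640 UMIs. In macrophage-like barcodes it was at 488 CPM in the control and 455 CPM in the tetYAP 4W library, so that it was not higher within this class. Amotl2 (85 and 223 UMIs) and Crim1 (64 and 257) were highest in endothelial-like barcodes, and Wwc1, the Hippo regulator KIBRA, was highest in hepatocyte-like ones (44.0 CPM) with a log2 ratio of 0.73 (0.44 to 1.02).

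The genes whose level over the 8 tetYAP 4W classes with at least 20 barcodes was most like that of Csf1 were Tef, Tmem238, Ddah1, Ivd and Pdia5 (Pearson r of CPM 0.857 to 0.904, among 5215 genes). Tef is a transcription factor of the clock output, Ddah1 breaks down methylarginines and Ivd takes part in leucine breakdown. On the log2(CPM + 10) scale 2 of the 5, Ddah1 and Ivd, were again among the first 5. Most like Csf1r were Cd300e, C5ar1, Tbxas1, Ctsc and Smpdl3a (0.996 to 0.998). Of these Cd300e and C5ar1 are myeloid cell surface receptors, Tbxas1 is thromboxane synthase and Ctsc a lysosomal protease. The 8 classes share a library and its free RNA, and these values are descriptions.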

How the data were processed

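The authors deposited raw counts, as UMIs per gene and barcode, made with Cell Ranger on mm10 per the labels, from v3 libraries per the methods, with Seurat 3 also named. Per the methods, both libraries were down-sampled to the same number of barcodes, and those with very many UMIs were removed. The deepest left held 7277 control and 7493 tetYAP 4W UMIs, among 2989 and 1524 barcodes. The number removed from each library is not stated. If the removal followed the down-sampling, as the methods list them, far more barcodes were removed from the tetYAP 4W library than from the control. The part of this removal in class shares and in values built on them was not tested. All values were whole and all barcodes were used. Groups were read from the genotype labels. UMIs were summed over barcodes and scaled to CPM. Each log2 ratio sets tetYAP 4W against control, with sums under 3 UMIs set to 3, except where a ratio with 1 or 2 control UMIs is given without this floor.

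A class was given at 25 marker UMIs for macrophage, 20 for endothelial, neutrophil and platelet, 10 for monocyte, dendritic, stellate, T or NK and B, and 50 for erythroid, from at least 3 markers. Barcodes above 40% of a limit were intermediate, the others hepatocyte-like. Limits were set, and Fn1 and Slc40a1 dropped, after the marker distributions were seen. The 3 genes and all lists were chosen with earlier results of these data known. Named were the 4 members of each list with most UMIs and the 5 genes most like Csf1 and Csf1r. Some of these are not reported here. Other lists (cholangiocyte, mesothelial, plasma and basophil markers) gave no class. Ratios were tried on simulated Poisson counts, whose variance equals the mean, as the intervals assume. This checks the arithmetic and not the wider spread seen over barcodes. No doublets were called. Alternatives were other class limits, Leiden clusters (scanpy 1.11.5, resolution 0.8), a 30% mitochondrial limit, thinning, other totals, equal weights and an offset. Python 3.11.15 and scipy 1.17.1 were used.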

Additional observations from a re-analysis of the deposited data

How the results depend on the processing

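Of 77 values under alternatives, 60 lay within the counting interval of the reported value or, for counts of genes, within 1.5 times of it, and 17 lay outside. No ratio whose interval excluded 0 changed sign. Of those near 0, Csf1 in endothelial over hepatocyte-like barcodes and Csf1r in macrophage-like barcodes each changed sign with an interval that excluded 0, under the 30% limit and the clusters given next. With barcodes at most 30% mitochondrial, the log2 ratio over all barcodes was 3.66 for Csf1 and 4.26 for Csf1r, the share of tetYAP 4W Csf1 UMIs in hepatocyte-like barcodes 34.1%, that of Csf1r UMIs in macrophage-like barcodes 83.5%, and Csf1 in endothelial over hepatocyte-like barcodes -1.12. Thinned to 1000 UMIs, the Csf1 ratio was 5.58, and 0% of Il34 UMIs (of 1 left) were endothelial-like, against 33.3%. Class limits divided by 2 gave shares of 35.8% (Csf1) and 79.7% (Csf1r), and limits multiplied by 2 gave 63.0% and 67.1%. Leiden clusters gave a Csf1r share of 77.6% and a macrophage-like ratio of 0.34. Intermediate barcodes counted as hepatocyte-like, chosen after seeing the data, gave a Csf1 share of 65.1%. With at least 50 UMIs, 11 YAP targets were higher, and on the log2 scale 2 of the 5 genes most like Csf1 and 2 of those most like Csf1r were shared; fewer genes pass the higher minimum, and the causes of the others were not tested. Csf1 in hepatocyte-like barcodes stayed between 5.47 and 6.24 under its alternatives, none of which took off the background. No paired analysis was possible because each group has 1 library and the labels carry no replicate numbers. With 1 library a group, replicate error is unknown, and Il34 is limited by depth.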
